A study of Mus musculus with 4 samples.

Results

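The actin isoforms are the 6 genes of the mouse that encode the conventional actins: Acta1 (skeletal muscle alpha actin), Actc1 (cardiac alpha actin), Acta2 (vascular smooth muscle alpha actin), Actg2 (enteric smooth muscle gamma actin) and the cytoplasmic actins Actb and Actg1. They were chosen by name, and each was found through the probe set that carries its gene number. Of the 6 genes 5 had such a probe set among 18783 named genes, and Actg1 was not analysed here. Of these 5, Acta1, Acta2, Actc1 and Actb lay above the floor on all 4 arrays and Actg2 lay below it on all 4. The floor, below which no gene was called, was set at 5.71, the median log2 intensity of all probe sets and arrays.

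Transcripts were measured in heart tissue of mice labelled as knockout (Mef2a-/-) or wild type (Mef2a+/+) for Mef2a, a MADS-box transcription factor of muscle. The 4 groups were knockout atria, wild type atria, knockout ventricles and wild type ventricles, all from animals 2 months old. Each group was 1 array, hybridised with RNA pooled from 7 mice of both sexes, in numbers that the sources used here do not give. Which cells carried the deletion, and which part of the gene was removed, were not stated either. The study compared knockout with wild type within each chamber, and atria with ventricles in wild type hearts; the chamber ratio in knockout hearts is set beside the last. Because a pool on 1 array has no replicate, differences have no error of their own, and every ratio describes these 4 pools only. The pools were whole chambers, so fewer cells of a type and less RNA per cell cannot be told apart.

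Actin monomers assemble into filaments. In striated muscle these form the thin filaments of the sarcomere, along which myosin pulls, and in other cells they form the cortex, stress fibres and the contractile apparatus of smooth muscle. The adult mouse heart relies mainly on Actc1, while Acta1 is more abundant in the developing heart and is a textbook marker of the reactivated fetal programme in cardiac hypertrophy. Acta2 is expressed for a short time in embryonic cardiomyocytes and later marks vascular smooth muscle and myofibroblasts. Actin genes are classical targets of serum response factor (SRF), which binds the CArG box, a CC and a GG that enclose a run of A and T bases.

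The 250 bases before the annotated start are shown for Acta1, Acta2 and Actc1, because the array values of these 3 muscle actins parted from each other while their promoters all carry CArG-like letters. For Acta2 the start used lies inside the gene's whole annotated span, which holds 212 of the 250 bases and both marked boxes. The sequences come from RefSeq (GRCm38.p6), lie on the minus strand of their chromosomes at chr8:123894776-123895025 for Acta1, chr19:34255374-34255623 for Acta2 and chr2:114052876-114053125 for Actc1, and are written 5′ to 3′ in the direction of transcription. Capitals mark CArG boxes, and boxes with 1 inner G or C in place of an A or T.
Acta1: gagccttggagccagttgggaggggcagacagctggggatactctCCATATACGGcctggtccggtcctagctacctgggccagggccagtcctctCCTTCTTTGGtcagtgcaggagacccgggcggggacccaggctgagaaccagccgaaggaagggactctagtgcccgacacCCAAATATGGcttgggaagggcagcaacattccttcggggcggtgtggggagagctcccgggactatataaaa
Acta2: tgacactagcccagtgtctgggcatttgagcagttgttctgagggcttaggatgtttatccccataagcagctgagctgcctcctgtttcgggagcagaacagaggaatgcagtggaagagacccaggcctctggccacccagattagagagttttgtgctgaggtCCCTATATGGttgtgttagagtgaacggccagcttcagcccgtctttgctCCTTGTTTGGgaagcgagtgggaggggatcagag
Actc1: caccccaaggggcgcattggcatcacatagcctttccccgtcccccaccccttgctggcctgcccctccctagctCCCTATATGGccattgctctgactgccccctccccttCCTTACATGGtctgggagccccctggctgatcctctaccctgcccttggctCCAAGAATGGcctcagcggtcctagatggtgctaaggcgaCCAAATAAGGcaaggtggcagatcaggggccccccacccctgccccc

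Windows that also held the 50 bases after the start were searched on both strands. A CArG box without mismatch lay at -73 to -64 in Acta1 (CCAAATATGG) and at -47 to -38 in Actc1 (CCAAATAAGG), counted from the annotated start. Acta2 had 2 boxes with 1 inner G or C, at -84 to -75 (CCCTATATGG) and at -34 to -25 (CCTTGTTTGG). Acta1 held 2 further boxes of that kind and Actc1 held 3. Among all 32851 promoter windows of the same length, 1.63% held a CArG box and 8.50% held one with 1 inner G or C. The MEF2 site, the sequence bound by the MEF2 factors, was not among the letters of the Acta1, Acta2 or Actc1 window, and 3.19% of all windows held it. TATAAA occurred at -7 to -2 in Acta1 and at 34 to 39 in Actc1, and in 13.6% of all windows. None of these matches overlapped another kind. The letters say nothing about whether a factor was bound.

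The arrays were comparable in range. Their medians lay between 5.66 and 5.75, and interquartile ranges were 3.18 to 3.21 except for knockout atria, whose values were packed more tightly (2.97). Mef2a itself stood at 10.41 in knockout and 10.32 in wild type atria, and at 10.34 in knockout and 10.28 in wild type ventricles. Its probe set did not check the genotype labels, and all directions rest on those labels. A gene counted as past the fold when it differed at least 1.5-fold between genotypes, a log2 ratio of 0.585 in size, or at least 2-fold between chambers, and when the brighter array of the pair reached the floor. All ratios are differences of log2 values, and a level is a log2 intensity.

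The coding regions of actin genes are closely alike, and probes can bind transcripts of more than 1 member. The sources used here do not say which parts of each gene the probes covered, and the part of cross-hybridisation in any actin value was not tested. Signal also depends on the probes, so no level of one actin is set against that of another.

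Acta1, the skeletal type, varied most among the actins. Its level was 6.84 in knockout atria, 7.42 in wild type atria, 8.10 in knockout ventricles and 9.92 in wild type ventricles. The 4 values span 3.08 log2 units, with wild type ventricles well above the other 3 arrays and knockout atria lowest. In ventricles Acta1 was 3.54-fold lower in the knockout pool, at a log2 ratio of -1.82, which left 28.3% of the wild type signal. Only 5 of 9713 genes above the floor had a lower ratio in that comparison. In atria Acta1 was lower in the knockout pool as well, at -0.579 or 1.49-fold, just short of the 1.5-fold mark. A lower atrial ratio was found for 210 of 10051 genes. Under median centring the atrial ratio was -0.60 and passed the mark.

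The chamber ratio of Acta1 was large in both genotypes. In wild type hearts Acta1 was 5.65-fold lower in atria than in ventricles (log2 ratio -2.50), and 16 of 10035 genes had a lower ratio. In knockout hearts the same chamber ratio was -1.25, or 2.39-fold. The knockout ratio in atria minus that in ventricles was 1.24, so that the fold differed 2.37-fold between chambers, and 19 of 9437 genes above the floor in both comparisons (0.201%) had a difference of at least that size. The central 95% of those genes lay between -0.52 and 0.43. The difference between chambers had no test, since it rests on 1 array for each of the 4 groups.

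Acta2, the vascular smooth muscle type, went the other way with genotype. Its level was 9.89 in knockout and 9.28 in wild type atria, and 10.92 in knockout and 10.56 in wild type ventricles. Both ventricular arrays were above both atrial arrays, and within each chamber the knockout array was the higher one. Acta2 was 1.53-fold higher in knockout than in wild type atria (log2 ratio 0.61), past the 1.5-fold mark, with 90 of 10051 genes higher. In ventricles it was higher by 0.37, or 1.29-fold, short of the mark, with 175 of 9713 genes higher. The ratios in the 2 chambers differed by 0.25, a size reached by 25.8% of genes. Set against Acta1 on the same arrays, where any shift of a whole array cancels, the knockout ratio of Acta1 minus that of Acta2 was -2.19 in ventricles and -1.19 in atria.

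Like Acta1, Acta2 was lower in atria than in ventricles. The ratio was -1.28 in wild type hearts (2.42-fold lower) and -1.03 in knockout hearts (2.04-fold lower). The knockout value was close to the 2-fold mark, and stood at -0.93 under quantile normalization and -0.88 under lowess centring, short of it. The chamber ratio of Acta1 minus that of Acta2 was -1.22 in wild type hearts and -0.22 in knockout hearts.

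Actc1, the main sarcomeric actin of the adult heart, was nearly level. It stood at 12.54 in knockout and 12.57 in wild type atria, and at 12.65 in both knockout and wild type ventricles. The knockout ratio was -0.03 in atria and -0.00 in ventricles, and the chamber ratio was -0.09 in wild type and -0.11 in knockout hearts. Each of these 4 small ratios changed sign under at least 1 other scaling of the arrays, so no direction is given. Actc1 was the highest value on 3 arrays and lay 0.06 below the highest on the wild type atria array. At such levels the knockout ratios of genes were narrow. Among 97 genes with a mean level of at least 11, their standard deviation was 0.13 in atria and 0.06 in ventricles. Over all genes above the floor it was 0.26 and 0.19. The chamber ratios of the 97 genes were wider, with 0.43 in wild type and 0.42 in knockout hearts. Over all genes above the floor these were 0.57 and 0.58. Whether probes of Actc1 were near saturation was not tested.

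Actb, which encodes the beta actin of the cell cortex and stress fibres, was also nearly level. Its values were 12.13 in knockout and 12.04 in wild type atria, and 11.96 in both knockout and wild type ventricles. The knockout ratio was 0.09 in atria and -0.00 in ventricles. The chamber ratio was 0.08 in wild type and 0.17 in knockout hearts. All 4 ratios lay within the central 95% of genes above the floor. Actg2, the actin of gut and other visceral smooth muscle, stood at 5.07 in knockout and 4.93 in wild type atria and at 5.11 in knockout and 5.10 in wild type ventricles. All 4 values are below the floor, and no fold is called from them. Whether they differ from background was not tested.

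**Figure D1:**
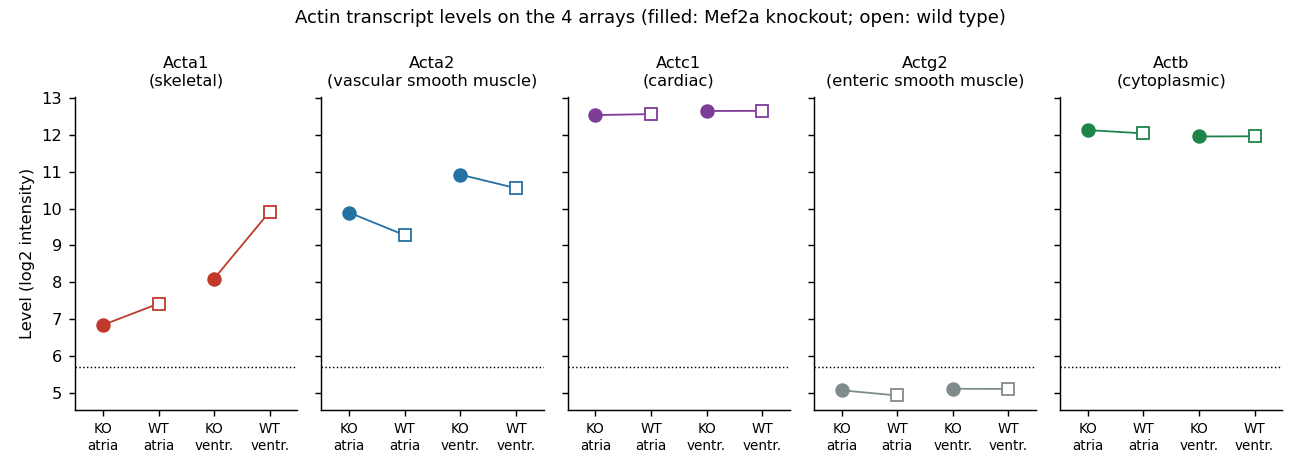
Level of each measured actin gene (log2 intensity, vertical axis) on the 4 arrays, with filled circles for Mef2a knockout pools, open squares for wild type pools and a dotted line at the floor of 5.71. Acta1 spans 3.08 log2 units and is highest in wild type ventricles, Acta2 is higher in each knockout pool than in the wild type pool of its chamber, Actc1 and Actb are nearly flat, and Actg2 lies below the floor.

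Counted over the isoforms, 1 of the 4 actins above the floor (Acta2) was past 1.5-fold higher in knockout atria and 0 were lower, where 1.02% of all genes were higher and 2.01% lower (3.03% in all). In knockout ventricles 0 were higher and 1 (Acta1) was lower, against 0.515% and 0.69% of all genes (1.2% in all). In atria against ventricles, 2 of 4 (Acta1 and Acta2) were at least 2-fold lower and 0 higher in each genotype. The shares of all genes in wild type hearts were 2.21% lower and 3.89% higher (6.1% in all), and in knockout hearts 2.85% lower and 3.46% higher (6.3% in all). The median of the 4 actins was 0.03 in knockout against wild type atria and -0.00 in ventricles, beside -0.03 and 0.00 over all genes above the floor, since Acta1 and Acta2 lay on opposite sides of the level isoforms. With 4 genes the shares are coarse, and the isoforms were named with earlier results of these arrays known.

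**Figure D2:**
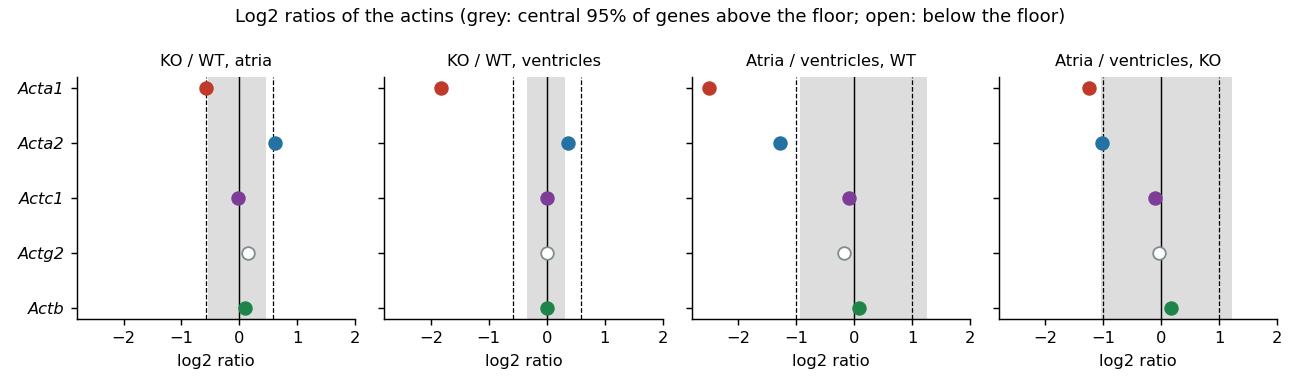
Log2 ratios of the measured actins (horizontal axis) in knockout over wild type atria, knockout over wild type ventricles, and atria over ventricles in wild type and knockout hearts, with grey bands for the central 95% of genes above the floor and dashed lines at 1.5-fold (genotype) or 2-fold (chamber). Acta1 reaches -1.82 in knockout ventricles and -2.50 in wild type atria against ventricles, Acta2 lies above the grey band in both genotype panels, and Actc1 and Actb lie inside it in all 4.

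**Figure D3:**
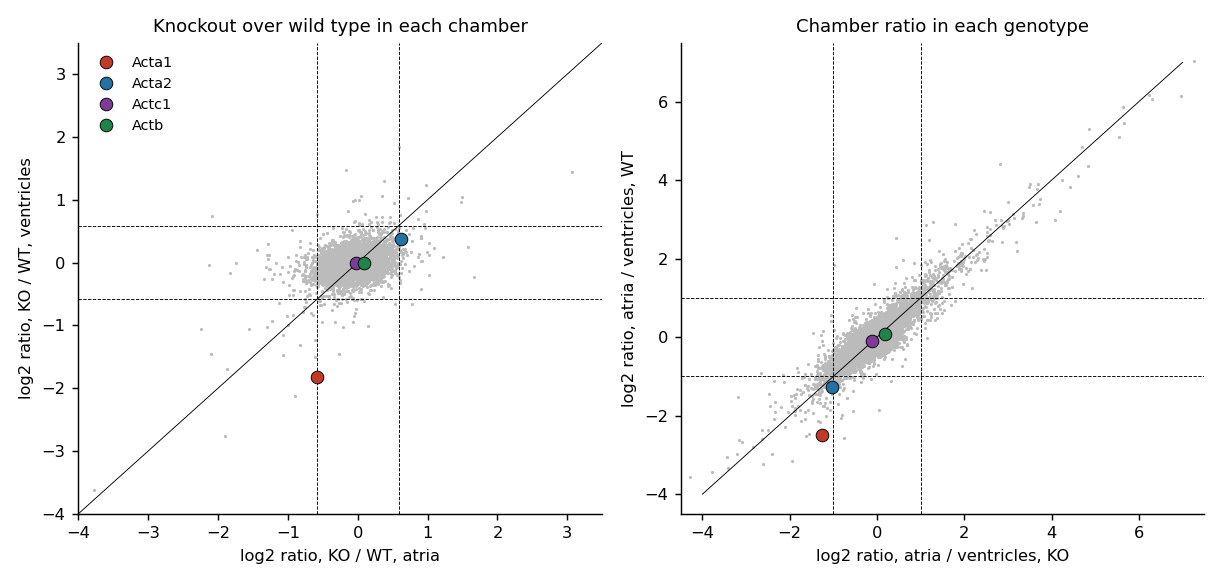
Left, log2 ratio of knockout over wild type in atria (horizontal) and in ventricles (vertical); right, log2 ratio of atria over ventricles in knockout (horizontal) and in wild type hearts (vertical); grey points are genes above the floor in both comparisons, dashed lines mark 1.5-fold or 2-fold and the diagonal marks equal ratios. Acta1 lies far below the diagonal in both panels (-0.58 and -1.82, -1.25 and -2.50), while Acta2, Actc1 and Actb lie near it.

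The genes most like each actin were found by the distance between log2 profiles over the 4 arrays, each centred on its own mean, among 10326 genes above the floor on at least 1 array. With 4 arrays this describes the profiles and nothing more. Nearest to Acta1 were Fam81a at a distance of 0.54, 2310002L09Rik at 0.58 and Tnfaip8, a regulator of cell death, at 0.60. No gene lay within 0.5 of Acta1. Fam81a was lowest in knockout atria and highest in wild type ventricles, as Acta1 was: 5.18 in knockout and 6.08 in wild type atria, 6.0 in knockout and 8.13 in wild type ventricles. Unlike Acta1, it stood higher in wild type atria than in knockout ventricles. In knockout atria Fam81a, 2310002L09Rik (4.87) and Tnfaip8 (5.53) were below the floor, and Acta1 was above it. Nearest to Acta2 were Fuca2, a fucosidase, at 0.12, and Phyhd1 and Gpd1 (the cytosolic glycerol-3-phosphate dehydrogenase), both at 0.16, with 112 genes within 0.5. Actc1, Actg2 and Actb were so flat that between 7277 and 7824 genes lay within 0.5 of each. Their nearest were Pdcd11, Mtr and Hnrnpul2 for Actc1, Trmt61a, Tle5 and Chst15 for Actg2, and Pigq, Sfswap and Ncapd2 for Actb, with Actg2 itself below the floor. Among the actins themselves, Acta1 and Acta2 lay 1.91 apart and Actc1 and Actb 0.24 apart.

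Skeletal muscle fibre genes were set beside Acta1, the isoform of that tissue. Of 17 such genes 11 were below the floor on all arrays, among them the fast myosin heavy chain genes Myh1, Myh2 and Myh4, the fast regulatory light chain gene Mylpf, the skeletal alpha-actinin gene Actn3 and the skeletal calcium release channel gene Ryr1. The mean level over all 17 was 4.87 in knockout and 5.27 in wild type atria, and 4.73 in knockout and 5.19 in wild type ventricles. Of the 17, 3 were past 1.5-fold lower in knockout ventricles beside Acta1, where 0.69% of all genes were: the fast alkali light chain gene Myl1 (-3.62), the calsequestrin gene Casq1 (-2.76) and the fast myosin-binding protein C gene Mybpc2 (-1.03). In atria 4 of 17 were lower, beside 2.01% of all genes, namely Myl1 (-3.77), Casq1 (-1.91), and the fast troponin genes Tnnt3 (-0.66) and Tnni2 (-0.59). Their chamber ratios in wild type hearts parted, with Casq1 at -1.55 and Mybpc2 at -1.71 lower in atria, as Acta1 was, and Myl1 at 1.34 and Tnnt3 at 1.02 higher. Over all 17 genes the median was 0.03 in knockout against wild type atria and -0.12 in ventricles, so that a few members carried the difference. Several of these reached the floor only on the wild type array, such as Myl1 with 4.47 in knockout and 8.09 in wild type ventricles.

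Of the genes whose proteins bind the sarcomeric thin filament, 2 of 19 were lower with Acta1 in knockout ventricles, beside 0.69% of all genes. The 2 were the filament-length gene Neb, nebulin, at -1.51 and the pointed-end capping gene Tmod4 at -1.24. Both were also past the mark in atria, at -0.61. Neb stood at 6.66 in wild type ventricles and below the floor, at 5.15, in knockout ventricles. The beta tropomyosin gene Tpm2 was higher in knockout ventricles at 1.47, beside 0.515% of all genes. In atria Tnnt3 and Tnni2 were also lower and the tropomyosin gene Tpm3 was higher at 0.92, which makes 4 lower and 1 higher of 19. Over all 19 genes the median was -0.08 in atria and -0.01 in ventricles. Between the chambers of wild type hearts, the filament-nucleating leiomodin gene Lmod3 (-1.30) and Tmod4 (-1.0) were lower in atria, as Acta1 was, and Tpm2 (2.93) and Tnnt3 (1.02) higher. In knockout hearts Lmod3 (-1.60) and the myofibril assembly gene Nrap (-1.2) were lower, and Neb (1.34) and Tpm2 (1.29) higher. Of all genes 2.21% were at least 2-fold lower and 3.89% higher in wild type hearts, and 2.85% and 3.46% in knockout hearts.

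Acta2 was read beside other smooth muscle genes, of which 11 of 12 were above the floor on some array. Their mean level was 7.35 in knockout and 7.41 in wild type atria, and 6.86 in knockout and 6.78 in wild type ventricles. In knockout atria 0 of 12 were past 1.5-fold higher, beside 1.02% of all genes. The calponin gene Cnn1 was lower at -1.29, beside 2.01% of all genes. Cnn1 stood at 6.59 in knockout and 7.88 in wild type atria, opposite in direction to Acta2. In knockout ventricles Tpm2 was the 1 of 12 past the mark, higher, beside 0.515% of all genes. Between wild type chambers, the regulatory light chain gene Myl9 (3.03), Tpm2 (2.93) and Cnn1 (2.47) were higher in atria, beside 3.89% of all genes. Acta2 was lower there. The potassium channel subunit gene Kcnmb1 was lower at -1.03, beside 2.21% of all genes. In knockout hearts Myl9 (3.13), Tpm2 (1.29), Cnn1 (1.2) and the LIM protein gene Csrp1 (1.14) were higher in atria, beside 3.46% of all genes. Of all 12 genes 6 had positive and 6 negative ratios between wild type chambers, with a median of 0.02. Acta2 thus shared its sign there with 6 of them, where 51.5% of all genes were negative. Kcnmb1, the 1 of these past the mark, stood below the floor in wild type atria (5.02) and at 6.05 in wild type ventricles. Lmod1, also among the 6 negative genes, was below the floor on all arrays. Cnn1, on the other side, reached the floor only in atria.

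Pericyte genes lay on the same side as Acta2 between chambers. All 6 were lower in wild type atria than in ventricles, where 51.5% of all genes were, with a median of -0.63. The sulfonylurea receptor gene Abcc9 (-1.97) and the G protein regulator gene Rgs5 (-1.16) were past 2-fold, beside 2.21% of all genes. Pdgfrb was nearest to level, at -0.13. In knockout hearts all 6 were again lower, where 55.4% of all genes were, with a median of -0.59. Abcc9 (-1.88) was past 2-fold there, beside 2.85% of all genes, and Pdgfrb stood at -0.04. Which cells carried these transcripts was not tested. In knockout against wild type, 0 of 6 pericyte genes passed 1.5-fold in either chamber. Of all genes 3.03% passed in atria and 1.2% in ventricles. The mean level of the 6 was 7.83 in knockout and 7.84 in wild type atria, and 8.56 in knockout and 8.66 in wild type ventricles. Fibroblast markers had genotype ratios opposite in sign to those of Acta2. All 10 had negative ratios in both chambers, beside 56.9% of all genes in atria and 48.6% in ventricles. The medians of the 10 were -0.34 in atria and -0.17 in ventricles. Lum (-0.84), Pdgfra (-0.63) and Dpt (-0.62) were past 1.5-fold lower in knockout atria, beside 2.01% of all genes. The mean level of the 10 was 8.72 in knockout and 9.15 in wild type atria, and 8.15 in knockout and 8.33 in wild type ventricles. The smooth muscle, pericyte and fibroblast lists all had members above the floor, and their part in the Acta2 values was not tested.

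SRF and its cofactors had 0 of 9 genes past 1.5-fold in either chamber, beside 3.03% of all genes in atria and 1.2% in ventricles. The activity of these factors was not tested. Between chambers the cofactor gene Fhl2 was lower in atria, at -1.41 in wild type and -1.70 in knockout hearts. Of 14 other SRF target genes, the matricellular genes Ccn1 (0.91) and Ccn2 (0.86) were higher in knockout atria together with Acta2, beside 1.02% of all genes. In knockout ventricles Ccn2 (0.69) was the 1 of 14 past the mark, beside 0.515% of all genes. The medians over all 14 were 0.00 in atria and 0.12 in ventricles. In wild type hearts Ccn2 (1.41), Fos (1.27) and Egr1 (1.09) were higher in atria, where Acta1 and Acta2 were lower, beside 3.89% of all genes. Fos stood at 6.14 in wild type atria and below the floor, at 4.87, in wild type ventricles.

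Of 47 genes above the floor that cross-link, nucleate, cap and recycle actin filaments, 4 (8.51%) passed 1.5-fold in atria, beside 3.03% of all genes, and 1 (2.13%) in ventricles, beside 1.2%. Among 16 cross-linkers and anchors, Xirp2, an actin-binding protein of the intercalated disc, was lower in knockout hearts at -2.24 in atria and -1.06 in ventricles. The bundling protein gene Fscn1 was higher in atria at 0.588, barely past the mark of 0.585. Of 17 genes for monomer binding and filament turnover, the capping protein gene Capza1 was lower in knockout atria (-1.28) and 0 passed in ventricles. Capza1 stood at 6.16 in wild type atria and below the floor, at 4.87, in knockout atria. Of 14 genes of the Arp2/3 complex and formins, which nucleate filaments, Arpc5 was lower in knockout atria (-0.76) and 0 passed in ventricles. Among 15 genes of actin folding and modification, Naa80, the enzyme that acetylates the actin N-terminus, was higher in knockout ventricles (0.60). All 15 had positive ratios there, with a median of 0.08 beside 0.00 over all genes, of which 48.6% were negative. In atria 10 of 15 were negative, near the 56.9% of all genes. Of 13 measured actin-like and actin-related genes 9 were below the floor on all arrays, Actbl2 among them, and 0 of the other 4 passed 1.5-fold.

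**Figure D4:**
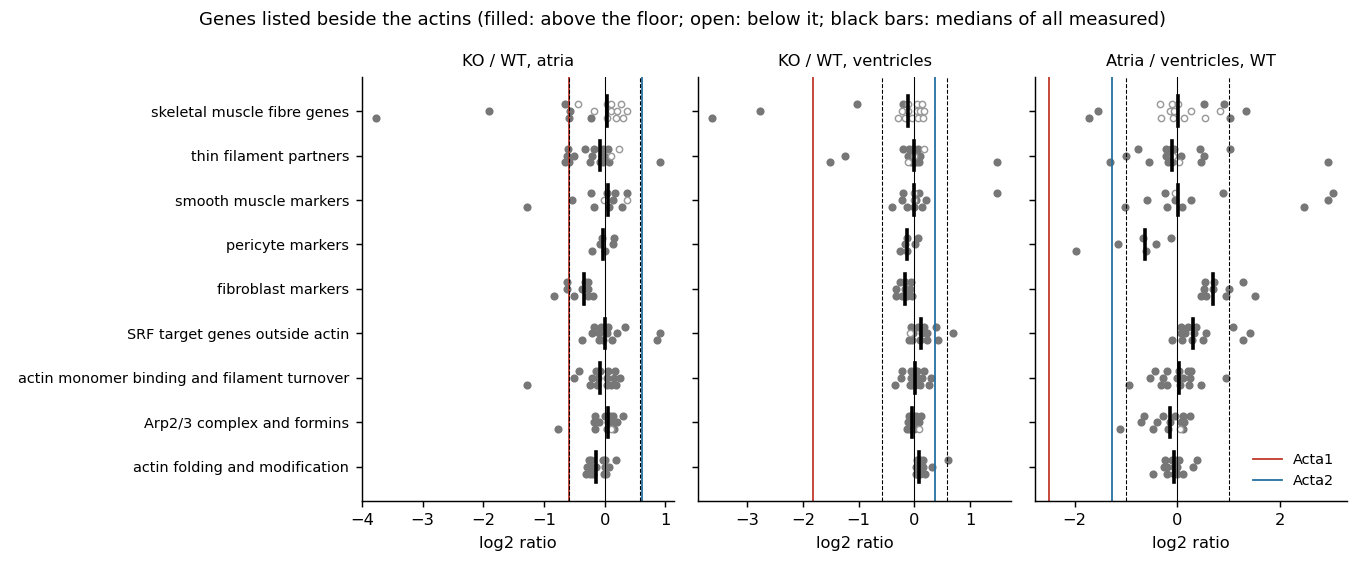
Log2 ratios (horizontal axis) of the listed genes in knockout over wild type atria, knockout over wild type ventricles and wild type atria over ventricles, with filled points above the floor, open points below it, a black bar at the median of all measured members, dashed lines at 1.5-fold or 2-fold, and coloured lines at the ratio of Acta1 (red) and Acta2 (blue). In ventricles the skeletal muscle list has its median at -0.12 with Myl1 and Casq1 below Acta1 at -1.82, and in the chamber panel the smooth muscle list has its median at 0.02 with 6 genes on either side of 0.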

How the data were processed

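Total RNA of dissected atria and ventricles was pooled, labelled with biotin and hybridised to 1 array per group, per the labels' protocols. Each probe set has 1 deposited log2 intensity per array, made by the authors with RMA and the affy package, per the submitters' processing notes. RMA corrects background, normalizes between arrays and summarises probes, and it narrows differences near background. The sources used here give no versions and no definitions of the probe sets, and scanner files were not used here.

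Of 21212 probe sets 18786 had 1 gene symbol in the platform annotation, 6 had several and 2420 had none. Symbols were updated through RefSeq (GRCm38.p6), by gene number for 18775, by accession for 4, and 7 were kept as annotated. For 3 symbols with several probe sets the one with the highest mean was kept, which left 18783 genes. Ratios are differences of log2 values, with no test. Alternatives were median centring, quantile normalization, lowess centring (span 0.4), other floors and other folds. The named genes are all actins, members past the fold of 17 gene lists (up to 4 a direction and comparison) and the 3 profiles nearest to each actin. The actins and the lists were chosen with earlier results of these data known. The calling step recovered known changes in simulated data, which says nothing about the error of a call from 1 array a group. The identity of actin proteins was not analysed here. Python 3.11.15, pandas 2.3.3 and statsmodels 0.14.6 were used. Precision is limited by the number of arrays.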

Additional observations from a re-analysis of the deposited data

Results flagged for a closer look

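The knockout ratio of Actb had opposite signs in the 2 chambers, at 0.088 in atria and -0.0036 in ventricles. The ventricular ratio turned to 0.014 under median centring and to 0 under quantile normalization, so the opposite signs did not hold under those scalings. Each value rests on 1 array a group and the difference was not tested. A difference between chambers of at least this size, 0.09, was found for 65.9% of genes above the floor.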

How the results depend on the processing

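The calls of Acta1 in ventricles, of Acta1 in both chamber comparisons and of Acta2 in atria and in the wild type chamber comparison held under all 3 other scalings (quantile normalization, median centring and lowess centring), without a floor and with it raised to the 75th percentile, 7.27. Acta1 ranged over the 3 scalings from -1.84 to -1.80 in knockout ventricles and from -0.60 to -0.53 in knockout atria. Under median centring 1 actin, Acta1, was past 1.5-fold lower in knockout atria, against 0 as deposited. At 2-fold 0 actins were higher in knockout atria, against 1. For knockout atria against ventricles 1 actin was lower under quantile normalization and 1 under lowess centring, against 2, because Acta2 lost its call. Of 48 ratios of the 4 actins above the floor under another scaling 41 moved by at most 0.1, and the largest shift was 0.20. Acta1 and Acta2 changed sign in 0 of them, Actb in 2 and Actc1 in 6, where a ratio turned to exactly 0 is counted as a change. The chamber difference of the knockout ratio moved to 0.11 for Actc1 under quantile normalization, beside -0.02 as deposited.

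Counts over all genes depended on the floor and the fold. In atria the 103 higher and 202 lower genes became 289 higher and 269 lower with no floor, 35 and 80 with the 75th percentile floor and 17 and 48 at 2-fold. In ventricles the 50 and 67 became 99 and 121, 22 and 34, and 14 and 22. For wild type chambers 390 higher became 253 with the higher floor, and 390 and 222 became 847 and 785 at 1.5-fold. For knockout chambers 350 higher became 219, and 350 and 288 became 789 and 1026. No scaling moved the median of all genes by over 0.1. No paired analysis was possible because each group had 1 array. The order of actins by level was not run, because levels of different probe sets are not comparable. Replicates could not be left out.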

Other observations

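Other markers of the chambers and of heart muscle gave the setting of the actin values. Epicardial markers were higher in wild type atria than ventricles in 8 of 8 genes with a median of 1.53, where 51.5% of all genes were lower. Of the 8, 5 passed 2-fold, led by Gpm6a (2.97) and Upk1b (2.85), beside 3.89% of all genes. In knockout hearts 6 passed, with a median of 1.60, beside 3.46% of all genes. In each genotype 5 of the 8 reached the floor only in atria. Upk1b was one of them, at 7.16 in wild type atria and 4.31 in wild type ventricles. The keratin gene Krt18 (0.60) was past 1.5-fold higher in knockout atria, beside 1.02% of all genes. Endothelial markers had 0 of 10 and macrophage markers 0 of 6 past 1.5-fold between genotypes in either chamber. Of all genes 3.03% passed in atria and 1.2% in ventricles, so 0 is near the share of all genes for lists this small. The von Willebrand factor gene Vwf was higher in atria at 1.73 in wild type and 1.88 in knockout hearts. Cardiomyocyte markers had 0 of 8 past the mark in any of the 4 comparisons. Between chambers 6.1% of all genes passed in wild type and 6.3% in knockout hearts.

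Genes known with Acta1 as markers of the fetal programme had ratios of both signs in knockout ventricles. Of 8 above the floor 4 were negative, as Acta1 was, where 48.6% of all genes were. Myl7 at -0.54 and Myl4 at -0.32 were the lowest, while Tnnt1 (-0.013) and Nppa (-0.008) were nearly level. The 4 positive ones included Nppb (0.45), Ankrd1 (0.23) and Xirp1 (0.16). Of the 8, only the slow myosin heavy chain gene Myh7 passed 1.5-fold in knockout ventricles, beside 1.2% of all genes. It stood at 9.65 in knockout and 8.66 in wild type ventricles, higher by 0.99, while Acta1 was lower by 1.82 there. In knockout atria 0 of 8 passed, beside 3.03% of all genes. Between wild type chambers Myh7 was lower in atria at -1.15, on the side of Acta1, while Myl7 (5.11), Myl4 (3.02) and Nppa (1.4) were higher there. Of all genes 2.21% were at least 2-fold lower and 3.89% higher.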
